A study of Mus musculus with 24 samples.

Results

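The dose dependence of the JQ1 enantiomer effect after 24 h was taken from the 12 libraries whose titles give 24 h, out of 24 libraries in all. For each gene, the difference between (+)-JQ1 and (−)-JQ1 at 0.5 µM, less the same difference at 0.2 µM, was taken on log2(FPKM + 1). It is called the interaction below. A negative value means that (+)-JQ1 lay further below (−)-JQ1, or less far above it, at 0.5 µM than at 0.2 µM. The cells were neural progenitor cells from cortices of C57BL/6 mouse embryos at day 12 of gestation, expanded in medium with B27 and basic FGF, and treated at passage 3. All were held in differentiation medium, with (+)-JQ1 at 0.5 µM, (−)-JQ1 at 0.5 µM, (+)-JQ1 at 0.2 µM or (−)-JQ1 at 0.2 µM, and the labels give 3 independent preparations, hence 3 libraries per group. The other 12 libraries hold the same 4 treatments at 12 h. Every group received one of the enantiomers, and no library without JQ1 was analysed here.

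JQ1 binds in the bromodomains of the BET proteins, which read acetylated histones and bring the elongation factor P-TEFb to genes. (+)-JQ1 is the enantiomer that binds, and (−)-JQ1, its mirror image with the opposite arrangement at the stereocentre, is described by the labels as inactive. Cortical progenitors that leave the cell cycle can become neurons, astrocytes or oligodendrocytes. Along the oligodendrocyte path, precursors that carry the PDGF receptor alpha pass through a committed stage marked by Gpr17 and Enpp6 before myelin genes such as Mbp are used strongly.

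The libraries resembled the labelled cells. The summed level of 7 progenitor and radial glia markers lay between 3150 and 7460 FPKM at 24 h. Most of it was Fabp7, with group means of 2160 to 3590 FPKM, and Vim, with 992 to 1410 FPKM. The 5 astrocyte markers summed to 312 to 956 FPKM, and the 4 neuron markers found to 121 to 255 FPKM. All 11 microglia markers and all 4 erythroid markers stayed under 1 FPKM. Markers of some other cell types were present at low levels. Their sums reached 6.62 FPKM for endothelium, 12.1 FPKM for pericytes and fibroblasts, and 31.9 FPKM for ependyma and choroid plexus. Foxj1, an ependyma marker, reached 29.8 FPKM, and Kdr, an endothelium marker, 6.58 FPKM. The 7 oligodendrocyte lineage markers summed to 268 to 320 FPKM with (+)-JQ1 at 0.5 µM, 1390 to 1650 FPKM with (−)-JQ1 at 0.5 µM, 577 to 649 FPKM with (+)-JQ1 at 0.2 µM and 1380 to 1690 FPKM with (−)-JQ1 at 0.2 µM. In 2 libraries the RNA gene Mir5105 took 46.9% of the summed FPKM, in (+)-JQ1 at 0.2 µM replicate 2, and 42.7%, in (−)-JQ1 at 0.2 µM replicate 1, against at most 4.03% for any gene in the other 10 libraries at 24 h. Interaction calls in the 12 libraries at 24 h are therefore also given without these 2 libraries where a call changes. FPKM values carry no read totals, so absolute depth is unknown, but the spacing of low values gave relative depths of 0.949 to 1.05 among the 24 h libraries.

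Across the transcriptome the enantiomers differed widely at each dose, and the size of that difference seldom depended on dose beyond the spread between replicates. Of 13462 genes tested, 3 had an interaction at a Benjamini-Hochberg adjusted p under 0.05 in limma, which is 0.0223%. None was higher, and the 3 were Gpr17, Enpp6 and 1810041L15Rik, each lower. At an unadjusted limma p under 0.05 there were 494 genes (3.67%), 97 with a positive and 397 with a negative interaction. That share is below the rate of 0.05 that this threshold gives if no gene depends on dose. The 494 can thus not be taken as a set of dose-dependent genes. Nor does the share show that none of them depends on dose. Of these 494, 357 were lower under (+)-JQ1 at both doses and further below at 0.5 µM, and 16 were lower at both and less far below. Another 35 were higher at both doses and further above at 0.5 µM, and 2 were higher at both and less far above. The remaining 84 had opposite signs at the 2 doses.

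For comparison, 4019 genes (29.9%) were called between (+)-JQ1 and (−)-JQ1 at 0.5 µM, 1238 higher (9.2%) and 2781 lower (20.7%). At 0.2 µM, 3148 genes (23.4%) were called, 924 higher (6.86%) and 2224 lower (16.5%). Scaling each library by its median ratio gave 1944 higher and 2458 lower at 0.5 µM, and 1586 higher and 1876 lower at 0.2 µM. It shifts the enantiomer difference in log2 FPKM, before 1 is added, by 0.10 at 0.5 µM and by 0.11 at 0.2 µM. Genes of low level shift by less once 1 is added. In log2 FPKM those shifts nearly cancel in the interaction, where −0.0032 is left. On log2(FPKM + 1) single genes moved by differing amounts, such as Enpp6 from −1.91 to −1.97 and Gpr17 from −2.65 to −2.67.

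The precision behind the missing calls was moderate. The median standard error of an interaction was 0.232 on the log2 scale, and the median half-width of its 95% interval was 0.503. For 11500 genes (85.4%) the 95% interval lay inside −1 to 1, so a 2-fold or larger dose dependence of FPKM + 1 lay outside the interval. For genes near 1 FPKM, a 2-fold dose dependence of FPKM itself is smaller on this scale and can lie inside it. For 2307 genes (17.1%) it lay inside −0.5 to 0.5. The interaction was above 0 in 6648 genes and below 0 in 6814 genes, with a median of −0.003.

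**Figure D1:**
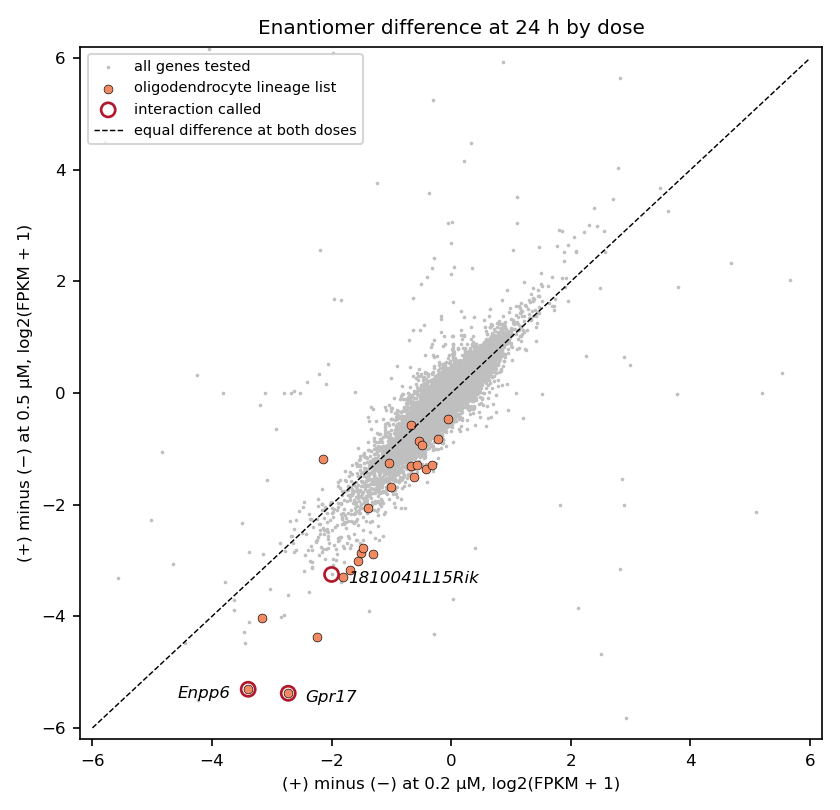
Difference between (+)-JQ1 and (−)-JQ1 after 24 h at 0.5 µM (vertical axis) and at 0.2 µM (horizontal axis), both in log2(FPKM + 1), for the 13462 genes tested; 4 genes fall outside the axes. The dashed line marks equal differences at both doses, and the circled genes Gpr17, Enpp6 and 1810041L15Rik lie below it.

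Gpr17, a G protein-coupled receptor of committed oligodendrocyte precursors, had 5.75, 7.66 and 10.6 FPKM with (+)-JQ1 and 355, 348 and 392 FPKM with (−)-JQ1 at 0.5 µM. It had 44.3, 46.8 and 66.1 FPKM with (+)-JQ1 and 372, 340 and 329 FPKM with (−)-JQ1 at 0.2 µM. The 4 groups form 3 levels: both (−)-JQ1 groups overlap at the top, (+)-JQ1 at 0.2 µM lies below them, and (+)-JQ1 at 0.5 µM lies below all others without overlap. The mean level with (+)-JQ1 was 2.19% of that with (−)-JQ1 at 0.5 µM, and 15.1% at 0.2 µM. The difference between the enantiomers was −5.38 at 0.5 µM and −2.73 at 0.2 µM on the log2 scale, an interaction of −2.65 ± 0.27 (SE, adjusted p = 0.00232 in limma).

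Enpp6, a choline-specific phosphodiesterase of newly forming oligodendrocytes, had 0.12, 0.304 and 0.21 FPKM with (+)-JQ1 and 43.3, 41.7 and 57.0 FPKM with (−)-JQ1 at 0.5 µM. It had 2.75, 3.13 and 2.96 FPKM with (+)-JQ1 and 40.2, 43.8 and 37.7 FPKM with (−)-JQ1 at 0.2 µM. The pattern of levels was that of Gpr17, with (+)-JQ1 at 0.5 µM close to 0. The share of the (−)-JQ1 mean that was left was 0.447% at 0.5 µM and 7.26% at 0.2 µM. The interaction was −1.91 ± 0.19 (SE, adjusted p = 0.00232 in limma), from differences of −5.31 at 0.5 µM and −3.40 at 0.2 µM. Because 1 is added to each FPKM before the log, these figures understate the change of a gene this low. With 0.1 added in place of 1 the interaction of Enpp6 was −3.54, and with 5 added it was −0.80 and no longer called (adjusted p = 0.419).

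The third gene, 1810041L15Rik, is named Shisal1 in RefSeq, where it is a protein-coding gene. It had 1.40, 1.07 and 1.29 FPKM with (+)-JQ1 and 20.1, 18.9 and 22.4 FPKM with (−)-JQ1 at 0.5 µM, and 3.66, 4.24 and 4.61 FPKM with (+)-JQ1 and 21.5, 19.2 and 18.4 FPKM with (−)-JQ1 at 0.2 µM. Again the (+)-JQ1 groups did not overlap with each other and the (−)-JQ1 groups did. The interaction was −1.25 ± 0.18 (SE, adjusted p = 0.0405 in limma). This call was the least stable of the 3. The value stayed between −1.32 and −1.19 when any 1 library was left out, but the adjusted p was 0.0642 to 0.186 in 11 of those 12 fits, and 0.0357 without (−)-JQ1 at 0.2 µM replicate 1. Without both libraries rich in Mir5105, the adjusted p in limma was 0.0104 for Gpr17 and Enpp6 and 0.0395 for 1810041L15Rik. In that fit 11 genes were called in all, 3 higher and 8 lower, in place of 3. The 3 higher were the short RNA genes Mir378b, Rny1 and Snora7a, and the short RNA gene Snord58b was among the 8 lower. So were 3110035E14Rik and Slc39a12, named after their values were seen (adjusted p = 0.0395 in limma for both).

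**Figure D2:**
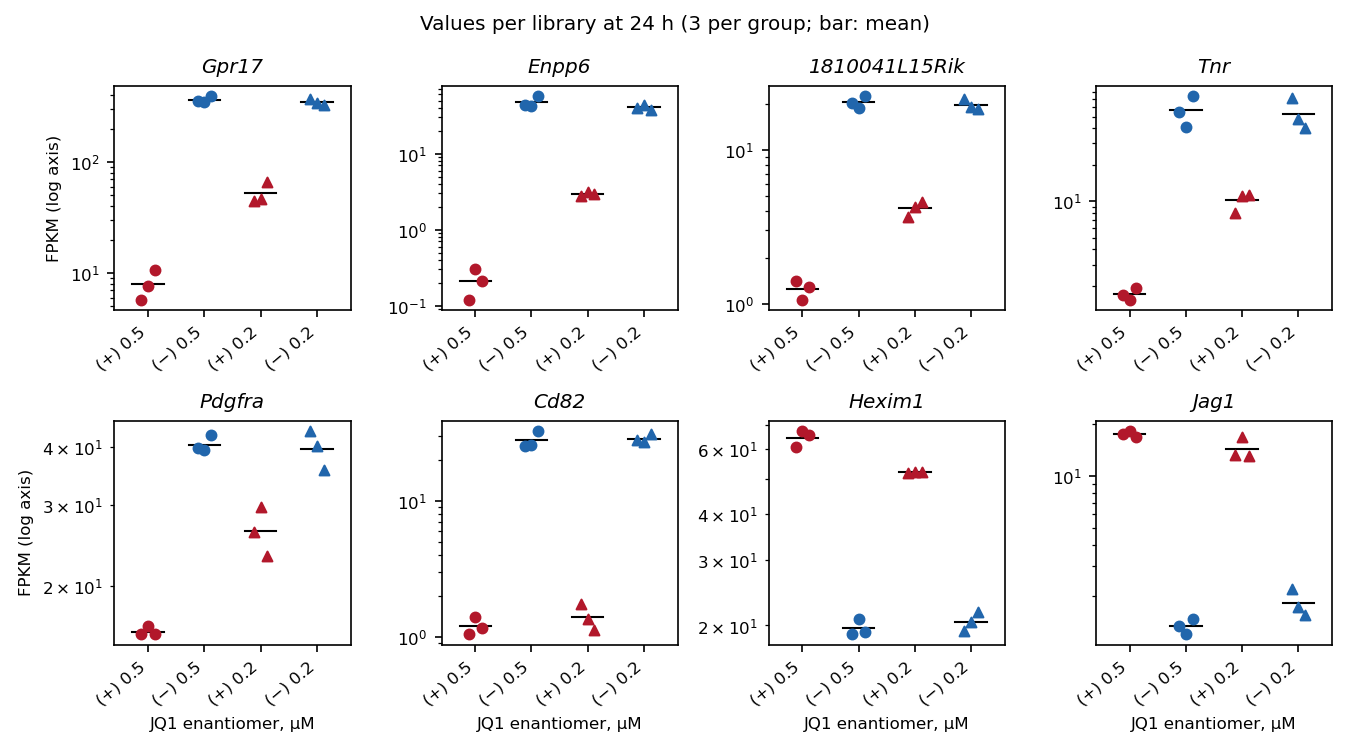
FPKM on a log axis in each of the 12 libraries at 24 h for 8 genes; circles mark 0.5 µM, triangles 0.2 µM, red (+)-JQ1, blue (−)-JQ1 and black bars group means. Gpr17, Enpp6, 1810041L15Rik and Tnr form 3 levels, Cd82 forms 2, and Hexim1 and Jag1 lie higher with (+)-JQ1.

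RefSeq gives a promoter window for Enpp6, whose interaction was called, and for Tnr, whose interaction was large but not called (adjusted p = 0.0599 in limma). The windows are shown so that the reader has the sequence behind these names. Each runs from 250 bases before to 50 bases after the annotated start, 5′ to 3′ on the plus strand of GRCm38.p6, at chr8:46986637-46986936 for Enpp6 and chr1:159523519-159523818 for Tnr. Capitals mark a match to ACAAAG, a core recognised by SOX factors, on either strand; CANNTG, the E-box of basic helix-loop-helix factors, was also searched.
Enpp6: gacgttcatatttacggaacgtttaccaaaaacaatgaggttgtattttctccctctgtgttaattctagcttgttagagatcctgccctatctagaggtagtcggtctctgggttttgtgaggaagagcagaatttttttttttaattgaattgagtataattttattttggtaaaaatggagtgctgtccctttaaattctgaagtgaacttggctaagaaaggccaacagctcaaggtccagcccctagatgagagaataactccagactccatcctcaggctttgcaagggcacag
Tnr: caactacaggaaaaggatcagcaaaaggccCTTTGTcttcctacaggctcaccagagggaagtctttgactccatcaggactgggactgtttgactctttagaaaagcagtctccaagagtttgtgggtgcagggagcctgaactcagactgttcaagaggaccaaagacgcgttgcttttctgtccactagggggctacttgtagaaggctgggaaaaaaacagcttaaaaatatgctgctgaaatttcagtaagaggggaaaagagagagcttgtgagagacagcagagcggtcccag
Among 32851 such windows, 72.3% hold CANNTG and 18.7% hold ACAAAG on either strand. The Enpp6 window holds no match to either motif, and the Tnr window holds 1 match to ACAAAG and none to CANNTG. These are descriptions of letters in the windows, and the expression data do not test them.

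5 further genes, named because they had the smallest p among those with a negative interaction that was not called, lay just past the threshold. Tnr, which encodes the extracellular matrix glycoprotein tenascin-R, had 1.67, 1.54 and 1.92 FPKM with (+)-JQ1 and 54.1, 41.2 and 73.7 FPKM with (−)-JQ1 at 0.5 µM, and 8.08, 11.1 and 11.3 FPKM with (+)-JQ1 and 71.0, 47.7 and 40.3 FPKM with (−)-JQ1 at 0.2 µM. Its interaction was −2.12 ± 0.32 (SE, adjusted p = 0.0599 in limma). Its (+)-JQ1 groups did not overlap, while the (−)-JQ1 libraries of both doses spread over a common range.

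Aqp4, the water channel of astrocyte endfeet, had 20.4, 22.2 and 25.2 FPKM with (+)-JQ1 and 252, 256 and 232 FPKM with (−)-JQ1 at 0.5 µM. At 0.2 µM it had 60.2, 45.8 and 64.5 FPKM with (+)-JQ1 and 206, 250 and 168 FPKM with (−)-JQ1, and the interaction was −1.54 ± 0.24 (SE, adjusted p = 0.0599 in limma). Without the libraries rich in Mir5105, both Tnr and Aqp4 reached an adjusted p of 0.0395. Ppp1r16b, a regulatory subunit of protein phosphatase 1, had an interaction of −1.40 ± 0.22 (SE, adjusted p = 0.0599 in limma). Ugt8a, which makes the myelin lipid galactosylceramide, and Spon1, the secreted matrix protein F-spondin, had interactions of −0.96 ± 0.16 and −1.09 ± 0.18 (SE, adjusted p = 0.0667 in limma for both). In the fit over all 24 libraries the 5 genes were called, with an adjusted p in limma of 0.00106 for Tnr, 0.0107 for Aqp4, 0.00212 for Ppp1r16b, 0.00185 for Ugt8a and 0.0119 for Spon1. Ugt8a was left at 39.6% of the (−)-JQ1 mean at 0.5 µM and at 79.2% at 0.2 µM.

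Genes of the oligodendrocyte lineage mostly had negative interactions. Of 26 genes on a list of this lineage, 24 were tested. 2 had a called interaction, both lower, against 0.0223% of all genes. At an unadjusted limma p under 0.05, 18 of the 24 (75%) had a negative interaction, against 2.95% of all genes. The interaction was negative in 22 of the 24, against 50.6% of all genes, and the median was −0.873, against −0.003 over all genes tested. The members of the list were chosen with earlier results of these data known, so these shares describe the list and are not an independent test. In bulk RNA, fewer cells of this lineage and less RNA per cell cannot be told apart.

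Among the transcription factors of the lineage the interactions varied widely. Olig2, the transcription factor that specifies the lineage, had 156, 165 and 187 FPKM with (+)-JQ1 and 295, 289 and 314 FPKM with (−)-JQ1 at 0.5 µM, and 248, 231 and 262 FPKM with (+)-JQ1 and 279, 278 and 307 FPKM with (−)-JQ1 at 0.2 µM. Its enantiomer difference was called at 0.5 µM (−0.82) and not at 0.2 µM (−0.22, adjusted p = 0.23 in limma), and the interaction of −0.60 ± 0.18 (SE) was not called (adjusted p = 0.761). Sox10, a factor needed for terminal differentiation, had an interaction of −0.95 ± 0.33 (SE), with 38.1% of the (−)-JQ1 mean left at 0.5 µM and 74.5% at 0.2 µM. Gm98, named Myrf in RefSeq, encodes the factor that turns on myelin genes, and was chosen after its values were seen. It had an interaction of −1.58 ± 0.30 (SE), with 10.8% left at 0.5 µM and 38.5% at 0.2 µM (adjusted p = 0.125 in limma). In the fit over all 24 libraries, which has more residual degrees of freedom, Gm98 was called (adjusted p = 0.0107 in limma).

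Pdgfra, the receptor that marks oligodendrocyte precursors, had 15.8, 16.4 and 15.7 FPKM with (+)-JQ1 and 39.6, 39.3 and 42.3 FPKM with (−)-JQ1 at 0.5 µM. At 0.2 µM it had 26.2, 29.6 and 23.3 FPKM with (+)-JQ1 and 43.2, 40.1 and 35.6 FPKM with (−)-JQ1. The enantiomers were separate at both doses, and the (+)-JQ1 groups of the 2 doses were separate as well. The interaction of Pdgfra was −0.72 ± 0.16 (SE, adjusted p = 0.304 in limma), and it was called in the fit over all 24 libraries (adjusted p = 0.0383).

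Mbp, myelin basic protein, varied more between replicates. It had 22.7, 31.7 and 13.3 FPKM with (+)-JQ1 and 184, 207 and 275 FPKM with (−)-JQ1 at 0.5 µM, and 89.1, 97.2 and 36.5 FPKM with (+)-JQ1 and 220, 207 and 306 FPKM with (−)-JQ1 at 0.2 µM. Its interaction was −1.50 ± 0.52 (SE), with a 95% interval of −2.63 to −0.36. It was not called (adjusted p = 0.985 in limma).

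**Figure D3:**
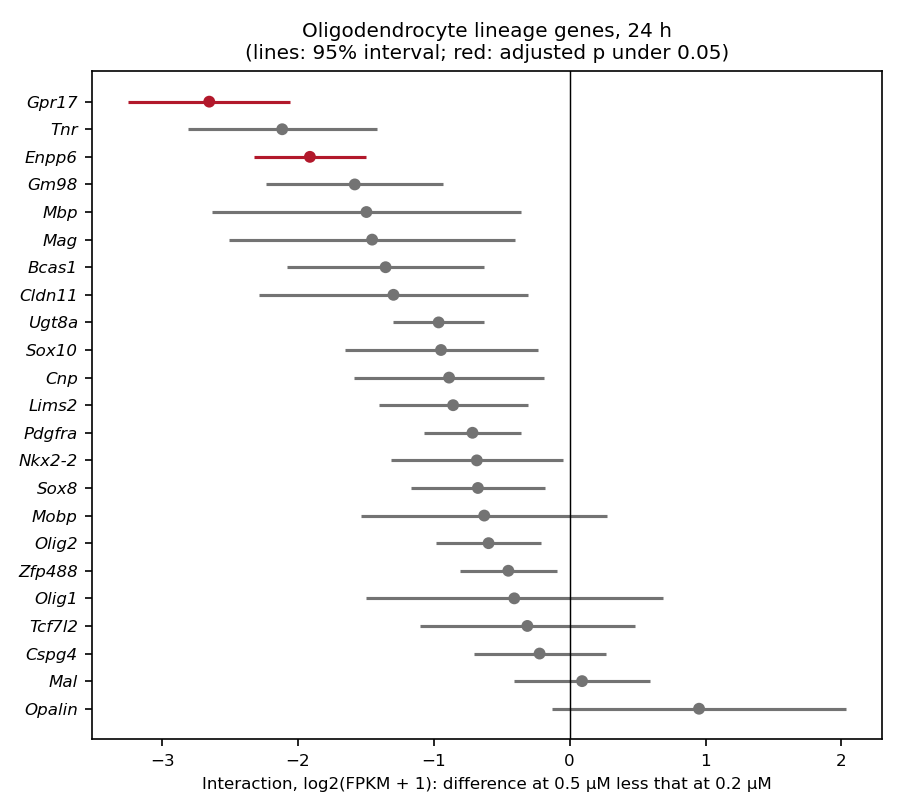
Interaction at 24 h, in log2(FPKM + 1), of 23 of the 24 oligodendrocyte lineage genes tested, with 95% intervals from limma. Points left of 0 mean a larger deficit under (+)-JQ1 at 0.5 µM than at 0.2 µM, as in 21 of the genes drawn; Gpr17 and Enpp6, in red, were called, and Mal and Opalin lie right of 0.

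The interaction can be split into the dose difference within each enantiomer, and most of the called dose differences lay in (+)-JQ1. Between 0.5 and 0.2 µM of (+)-JQ1, 92 genes (0.683%) were called, of which 91 (0.676%) were lower at 0.5 µM and 1 (0.00743%) higher. The 91 genes had a median dose difference of −0.905 in (+)-JQ1, the values that chose them, and −0.0709 in (−)-JQ1. Between 0.5 and 0.2 µM of (−)-JQ1 limma called 0 genes, with 745 genes (5.53%) at an unadjusted p under 0.05. Whether fewer genes depend on dose in (−)-JQ1 than in (+)-JQ1 was tested only gene by gene, through the interaction. The count of 92 was sensitive to single libraries: it was 19 to 56 without any one of the 6 (+)-JQ1 libraries or without (−)-JQ1 at 0.5 µM replicate 1 or 2.

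Of the 24 oligodendrocyte lineage genes, 10 fell at 0.5 µM of (+)-JQ1 relative to 0.2 µM, against 0.676% of all genes called lower. Among them were Gpr17, Tnr, Mag, Enpp6, Gm98, Cnp, Lims2, Ugt8a and Pdgfra. The dose difference of Gpr17 was −2.58 ± 0.19 in (+)-JQ1 and 0.07 ± 0.19 in (−)-JQ1 (SE). For Enpp6 it was −1.71 ± 0.13 in (+)-JQ1 and 0.21 ± 0.13 in (−)-JQ1 (SE).

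Further genes of myelin and of oligodendrocytes were among the 92, and are named here after their values were seen. Fa2h, the fatty acid 2-hydroxylase of myelin lipids, fell by 1.23 at 0.5 µM relative to 0.2 µM of (+)-JQ1 on the log2 scale (adjusted p = 0.0368 in limma). Gal3st1, which makes sulfatide, fell by 1.55 (adjusted p = 0.0115 in limma). Nfasc, the adhesion protein neurofascin of axon and glia contacts, fell by 1.37 (adjusted p = 0.00435 in limma), with 42.3% of the (−)-JQ1 mean left at 0.2 µM. The interaction was −1.42 ± 0.26 (SE) for Nfasc. None of the 3 interactions was called in the 12 libraries, and that of Nfasc was called in the fit over all 24 libraries (adjusted p = 0.0107 in limma).

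Of the other genes among the 92, 4 more are named after their values were seen. Eln, elastin, had 4.95, 5.28 and 4.66 FPKM with (+)-JQ1 and 22.2, 19.6 and 20.4 FPKM with (−)-JQ1 at 0.5 µM, and 12.2, 17.9 and 12.3 FPKM with (+)-JQ1 and 44.8, 17 and 25.8 FPKM with (−)-JQ1 at 0.2 µM. The highest value, 44.8 FPKM, was in one of the libraries rich in Mir5105. Fbln5 and Efemp2, which help assemble elastin, and Loxl1, which crosslinks it, fell by 0.94, 0.72 and 0.78 at 0.5 µM relative to 0.2 µM of (+)-JQ1 on the log2 scale (adjusted p = 0.0322, 0.0437 and 0.0455 in limma). The interaction was −0.95 ± 0.37 for Eln, −0.95 ± 0.25 for Fbln5, −0.23 ± 0.20 for Efemp2 and −0.66 ± 0.22 for Loxl1 (SE), and none was called. Within (−)-JQ1 the dose difference of Efemp2 was −0.48, against −0.72 within (+)-JQ1.

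The 1 gene that rose at 0.5 µM of (+)-JQ1 relative to 0.2 µM was 0610040B10Rik, for which no role is given here. It had 11.6, 11.1 and 7.28 FPKM with (+)-JQ1 at 0.5 µM and 4.25, 4.83 and 3.69 FPKM with (+)-JQ1 at 0.2 µM, a dose difference of 1.04 ± 0.19 (SE, adjusted p = 0.0252 in limma). It also led the positive interactions by p, at 1.20 ± 0.26 (SE, adjusted p = 0.246 in limma), followed by LOC100504676, LOC100861735, Phf16, Frat1, Cdca3, 4921517L17Rik and Pmaip1, none of them called. Frat1, an inhibitor of glycogen synthase kinase 3 in Wnt signalling, was left at 190% of the (−)-JQ1 mean at 0.5 µM and 95.8% at 0.2 µM. Pmaip1, the pro-apoptotic BH3-only protein Noxa, was at 101% at 0.5 µM and 42.0% at 0.2 µM.

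Genes often used to follow BET inhibition moved at both doses without a called dose dependence. Hexim1, the inhibitor of P-TEFb whose transcript is widely used as a marker of BET inhibition, had 60.8, 67.2 and 65.5 FPKM with (+)-JQ1 and 18.9, 20.8 and 19.2 FPKM with (−)-JQ1 at 0.5 µM, and 51.7, 52.2 and 52.0 FPKM with (+)-JQ1 and 19.3, 20.4 and 21.8 FPKM with (−)-JQ1 at 0.2 µM. It was called higher under (+)-JQ1 at both doses, by 1.67 at 0.5 µM and 1.3 at 0.2 µM on the log2 scale. The (+)-JQ1 libraries at 0.5 µM all lay above those at 0.2 µM, but the interaction of 0.37 ± 0.14 (SE) was not called (adjusted p = 1 in limma), and its 95% interval was 0.06 to 0.67.

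Myc, the growth-promoting transcription factor, had 7.13, 7.06 and 7.52 FPKM with (+)-JQ1 and 32.9, 37.4 and 35.9 FPKM with (−)-JQ1 at 0.5 µM. At 0.2 µM it had 12.4, 11.7 and 11.6 FPKM with (+)-JQ1 and 33.7, 33.9 and 32.1 FPKM with (−)-JQ1. It fell at both doses, and within (+)-JQ1 it fell by 0.65 at 0.5 µM relative to 0.2 µM on the log2 scale (adjusted p = 0.0115 in limma). The interaction of −0.73 ± 0.14 (SE) was not called (adjusted p = 0.125 in limma). The BET gene Brd2 was called higher under (+)-JQ1 by 0.56 at 0.5 µM and 0.55 at 0.2 µM, with an interaction of 0.01 and a 95% interval of −0.39 to 0.41.

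Across 14 tested genes of the BET and P-TEFb list, 0 had a called interaction and 1, Hexim1, had an unadjusted limma p under 0.05 with a positive interaction, against 0.721% of all genes. The median was −0.03. Of 20 genes on the Myc list, 0 were called in limma and 1, Myc, had an unadjusted p under 0.05 with a negative interaction. The median of the Myc list was −0.02.

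Several genes with a strong enantiomer difference had no detected dose dependence. Cd82, a tetraspanin of the cell surface chosen after its values were seen, had 1.05, 1.41 and 1.16 FPKM with (+)-JQ1 and 25.4, 26.0 and 32.9 FPKM with (−)-JQ1 at 0.5 µM, and 1.75, 1.36 and 1.12 FPKM with (+)-JQ1 and 28.3, 27.1 and 31.1 FPKM with (−)-JQ1 at 0.2 µM. It was left at 4.30% of the (−)-JQ1 mean at 0.5 µM and 4.89% at 0.2 µM. The groups formed 2 levels, by enantiomer, with the doses overlapping within each. The interaction was −0.08 ± 0.20 (SE), with a 95% interval of −0.51 to 0.35. With (+)-JQ1 at 0.2 µM, Cd82 already lay at 1.12 to 1.75 FPKM, and 1 is added to each FPKM before the log. A further fall at 0.5 µM could therefore not have given interactions as low as those of Gpr17 and Enpp6, and the interval is no contrast to them.

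Gfap, the intermediate filament of astrocytes, had 201, 218 and 242 FPKM with (+)-JQ1 and 414, 497 and 410 FPKM with (−)-JQ1 at 0.5 µM, and 235, 294 and 271 FPKM with (+)-JQ1 and 514, 474 and 583 FPKM with (−)-JQ1 at 0.2 µM. It was left at 50.0% at 0.5 µM and 51.0% at 0.2 µM. It was called lower at both doses, and its interaction was −0.02 ± 0.21 (SE, 95% interval −0.49 to 0.44). Ccnd1, cyclin D1, was left at 38.5% at 0.5 µM and 38.1% at 0.2 µM, with a 95% interval of the interaction of −0.46 to 0.48. These intervals still allow a dose dependence of up to −0.49 or 0.48 on the log2 scale.

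Astrocyte genes as a list lay between these cases. Of 21 tested, 0 had a called interaction in limma, and 2, Aqp4 and S100b, had an unadjusted p under 0.05 with a negative interaction, against 2.95% of all genes. The median was −0.144. S100b, a calcium-binding protein of astrocytes and of oligodendrocyte lineage cells, was left at 4.03% of the (−)-JQ1 mean at 0.5 µM and 11.6% at 0.2 µM, with an interaction of −1.15 ± 0.29 (SE, adjusted p = 0.433 in limma).

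Genes of progenitors and neurons had no called dose dependence. Of 23 stem and radial glia genes tested, 12 were called higher and 5 lower under (+)-JQ1 at 0.5 µM, against 9.2% higher and 20.7% lower of all genes. At 0.2 µM, 8 were called higher and 3 lower, against 6.86% higher and 16.5% lower of all genes. Sox2, a progenitor transcription factor, had an interaction of 0.11 ± 0.26, and Nes, the progenitor filament nestin, 0.17 ± 0.22 (SE). Insm1, a zinc finger factor of newborn neuronal precursors, had 34.6, 35.2 and 39.6 FPKM with (+)-JQ1 and 8.33, 6.59 and 9.06 FPKM with (−)-JQ1 at 0.5 µM, and 30.2, 38.7 and 34.6 FPKM with (+)-JQ1 and 12.3, 5.68 and 9.57 FPKM with (−)-JQ1 at 0.2 µM. The (+)-JQ1 groups of the 2 doses overlapped, and so did the (−)-JQ1 groups. The interaction of Insm1 was 0.21 ± 0.30 (SE, 95% interval −0.43 to 0.86).

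Of 24 tested genes of the neuronal cytoskeleton and synapse, 2 were called higher and 7 lower under (+)-JQ1 at 0.5 µM. Of all genes, 9.2% were called higher and 20.7% lower at that dose. At 0.2 µM, 3 of the 24 were called higher and 5 lower, against 6.86% higher and 16.5% lower of all genes. Tubb3, neuronal tubulin, was called higher by 1.07 at 0.5 µM and 0.68 at 0.2 µM, with an interaction of 0.39 ± 0.28 (SE). Dcx, a microtubule protein of migrating neurons, went the other way, at 49.9% of the (−)-JQ1 mean at 0.5 µM and 78.8% at 0.2 µM, with an interaction of −0.60 ± 0.31 (SE, 95% interval −1.27 to 0.07). The median interaction was 0.0977 over 23 stem and radial glia genes, 0.178 over 10 proneural genes and −0.0575 over 24 genes of the neuronal cytoskeleton and synapse. None of these genes was called in limma; at an unadjusted p under 0.05 there were 1 positive and 1 negative, 0 positive and 2 negative, and 0 positive and 1 negative in the 3 lists in that order, against 0.721% positive and 2.95% negative of all genes.

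In the Notch pathway, by which neighbouring progenitors hold each other undifferentiated, the ligand gene Jag1 rose under (+)-JQ1 at both doses. Jag1 had 17.6, 18.3 and 16.8 FPKM with (+)-JQ1 and 1.34, 1.20 and 1.48 FPKM with (−)-JQ1 at 0.5 µM, and 13.2, 16.8 and 13.1 FPKM with (+)-JQ1 and 2.20, 1.73 and 1.57 FPKM with (−)-JQ1 at 0.2 µM. The interaction of 0.55 ± 0.19 (SE) was not called (adjusted p = 0.922 in limma). Dll3, an inhibitory ligand, was left at 31.9% of the (−)-JQ1 mean at 0.5 µM and 74.8% at 0.2 µM, with an interaction of −1.19 ± 0.34 (SE, adjusted p = 0.693 in limma). Hes5, a target of the pathway, had an interaction of 0.21 with a wide 95% interval of −0.76 to 1.19, and its highest value, 248 FPKM, was in one of the libraries rich in Mir5105. Of 20 Notch genes tested, 0 were called in limma, 2 had a positive and 2 a negative interaction at an unadjusted p under 0.05, against 0.721% positive and 2.95% negative of all genes, and the median was 0.00633.

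Histone genes, which package DNA, were called higher under (+)-JQ1 in 31 of 34 tested at 0.5 µM and in 25 at 0.2 µM, against 9.2% of all genes at 0.5 µM and 6.86% at 0.2 µM. They had positive interactions in 27 of 34 tested, against 49.4% of all genes, with a median of 0.275. None was called in limma, and 2 of the 34 (H2afx and Hist1h2be) had an unadjusted p under 0.05 with a positive interaction, against 0.721% of all genes. The median dose difference of the list, 0.5 µM less 0.2 µM, was 0.0853 within (+)-JQ1 and −0.218 within (−)-JQ1. H2afx, the variant phosphorylated at DNA breaks, was at 302.2% of the (−)-JQ1 mean at 0.5 µM and 221% at 0.2 µM, and its interaction was 0.44 ± 0.19 (SE). Reads of the clustered histone genes can be shared between near-identical copies, so single values of that list are uncertain. The libraries were selected for poly(A), and how fully they capture histone transcripts was not tested.

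**Figure D4:**
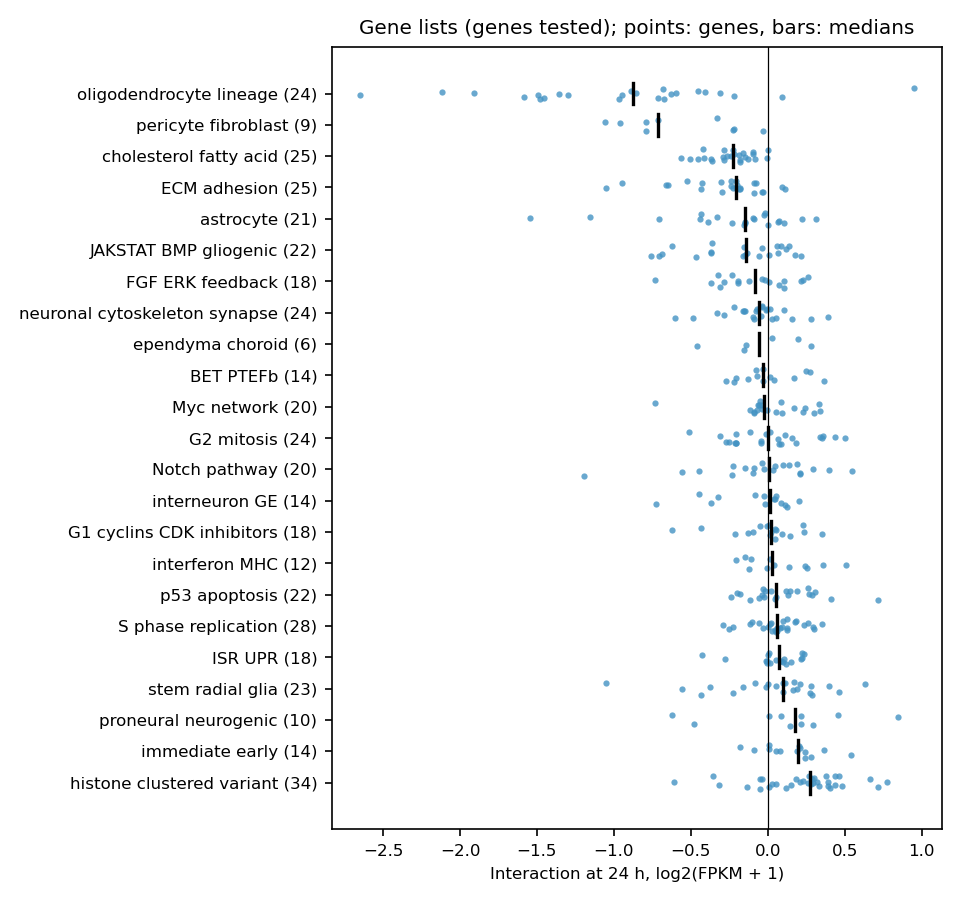
Interaction at 24 h, in log2(FPKM + 1), of the genes in each list with at least 5 genes tested; points are genes, bars medians, and the number of genes tested stands in brackets. The oligodendrocyte lineage list has the lowest median (−0.873) and the histone list the highest (0.275).

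To describe the dose dependence over strongly affected genes without choosing them in the 24 h libraries, genes were taken from the 12 h libraries, where the mean difference of both doses was called and at least 2-fold (6.11% of 13312 genes). Of 680 genes lower under (+)-JQ1 at 12 h, 674 were tested at 24 h. Their median difference at 24 h was −1.55 at 0.5 µM and −1.23 at 0.2 µM, and 570 (84.6%) had a negative interaction, against 50.6% of all genes, with a median of −0.33. Taken within the libraries of each replicate number, that median was −0.28, −0.43 and −0.31. The 134 genes higher at 12 h had a median difference at 24 h of 1.27 at 0.5 µM and 1.13 at 0.2 µM, and 108 (80.6%) had a positive interaction, against 49.4% of all genes, with a median of 0.23. Within the libraries of each replicate number this median was 0.41, −0.08 and 0.36, so it was smaller than their spread (SD 0.27) and turned in 1 set. Among the 674 genes, 3 had a called interaction at 24 h, and among the 134 limma called 0.

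The same interaction in the 12 h libraries, which share no library with those at 24 h, was called for 15 of 13312 genes (0.113%), all lower. Among them were Ech1, Gpr17, Slc1a1, Omg, 1810041L15Rik, Gpr56, Rap1gap, Nalcn, Phldb1, Snora65, Afap1l2, Cnp, 3110035E14Rik and Lims2. 2 of the 15, Gpr17 and 1810041L15Rik, were also called at 24 h, which is 2 of the 3 called there. At 24 h the interaction was negative in 14 of the 15, with a median of −0.975, and all 15 had an unadjusted limma p under 0.05. The labels do not say whether the same preparations served both times, so the 2 times may not be independent. The count of 15, all lower, is from the fit without a replicate block. With a block, which adds the replicate number to the fit, limma called 261 genes at 12 h, 37 higher and 224 lower.

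Gpr17 had an interaction of −2.80 ± 0.32 at 12 h (SE, adjusted p = 0.0139 in limma), from 5.52, 3.93 and 2.95 FPKM with (+)-JQ1 and 383, 335 and 368 FPKM with (−)-JQ1 at 0.5 µM, and 51.6, 28.5 and 28.5 FPKM with (+)-JQ1 and 379, 341 and 391 FPKM with (−)-JQ1 at 0.2 µM. These levels were arranged as at 24 h. Enpp6 just missed a call at 12 h (−1.12 ± 0.19 SE, adjusted p = 0.0517 in limma). The 12 h count was sensitive to single libraries: it lay between 0 and 9 without any one of the 6 (−)-JQ1 libraries at 12 h, and was 3 without (+)-JQ1 at 0.5 µM replicate 3. The oligodendrocyte lineage list had a negative interaction in 21 of 21 genes tested at both times, with a median of −0.75 at 12 h.

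Whether the dose dependence itself differed between 24 and 12 h was tested in one fit over all 24 libraries. Of 13801 genes, 1 was called (0.00725%), the small nucleolar RNA gene Snora65, and 168 (1.22%) had an unadjusted limma p under 0.05. For Gpr17 the change in the interaction, 24 h minus 12 h, was 0.15 ± 0.43, and for Enpp6 it was −0.79 ± 0.27 (SE), neither called (adjusted p = 1 in limma).

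**Figure D5:**
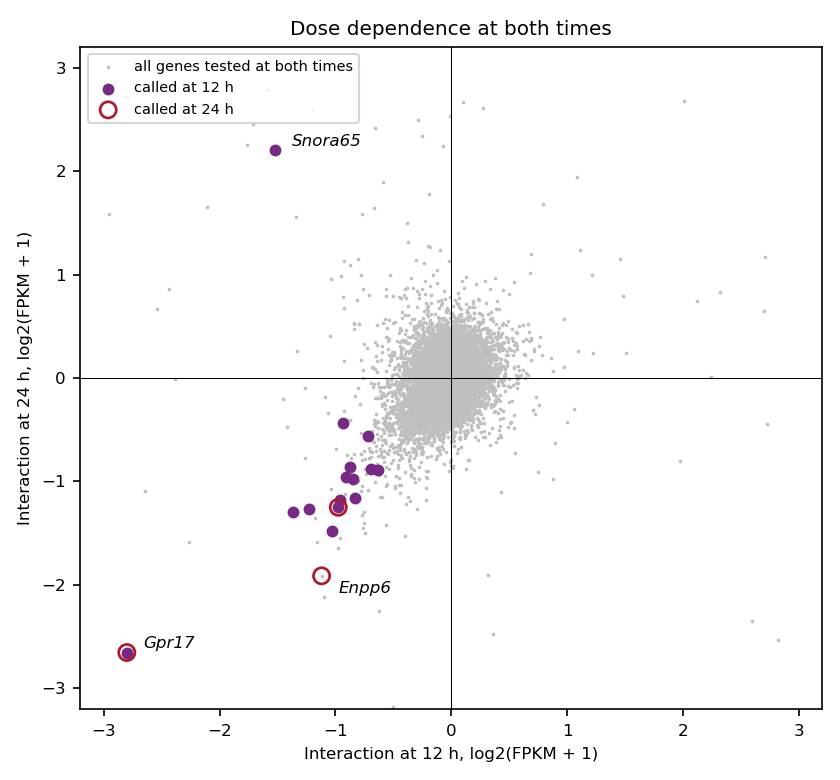
Interaction at 24 h (vertical axis) and at 12 h (horizontal axis), both in log2(FPKM + 1), for all genes tested at both times; 46 genes fall outside the axes. Of the 15 genes called at 12 h without a replicate block (filled), 14 lie below 0 at 24 h, and Snora65 lies above.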

How the data were processed

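Poly(A) RNA of 24 libraries was sequenced as single-end reads on an Illumina instrument, per the labels' protocols. The submitters' processing notes name FastQC, TopHat2 and the build mm9, without versions. The deposited values are taken as FPKM per gene symbol from how they behave, since the header does not name the unit; the program that made them and any scaling between libraries are not given in the sources used here. Each file held 26694 entries, of which 58 entries of 29 repeated symbols were left out.

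Values were analysed as log2(FPKM + 1) in limma 3.58.1 (R 4.3.3). A gene was tested where 3 or more of the 12 libraries reached 1 FPKM, with 1 mean per group, empirical Bayes with trend and robust settings, and 8 residual degrees of freedom. A call is an adjusted p under 0.05 (Benjamini-Hochberg, across the genes of one comparison and not across comparisons). The test across times used all 24 libraries. The scale hides changes below about 1 FPKM. The labels call the 3 preparations independent, and replicate numbers were not used as pairs. The fits were tested on simulated data.

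Genes were named by rule: called genes, the next by p in each direction up to 8, a fixed set, and for each of 26 gene lists the called members or the one with the smallest p. Members and lists were chosen with earlier results of these data known. RefSeq promoter windows (GRCm38.p6) were matched by symbol, and no coordinates come from the files. Alternatives were other scalings, filters and pseudocounts, library weights, plain moderation, a replicate block, all 24 libraries, and libraries left out. One gene of the lineage list is counted in the totals and not reported here by name.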

Additional observations from a re-analysis of the deposited data

Results flagged for a closer look

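The enantiomer difference depended on dose, by a test of the interaction in limma, in 3 genes at 24 h: Gpr17 (−2.65), Enpp6 (−1.91) and 1810041L15Rik (−1.25), in log2(FPKM + 1), 0.5 µM less 0.2 µM.

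At 12 h the same test, without a replicate block, called 15 genes. Among those of myelin or the oligodendrocyte lineage were Gpr17 (−2.80), Omg (−0.96), Lims2 (−0.87) and Cnp (−0.64). The others with known roles were Gpr56, an adhesion receptor (−1.36), Slc1a1, a glutamate transporter (−0.85), Nalcn, a sodium leak channel (−0.83), Rap1gap, which turns off the small GTPase Rap1 (−0.93), and Ech1, an enzyme of fatty acid oxidation (−0.72). The remaining genes were 3110035E14Rik (−1.22), 1810041L15Rik (−0.98), Afap1l2 (−0.91), Phldb1 (−0.69) and the small nucleolar RNA gene Snora65 (−1.52).

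Snora65 was the only gene of 13801 whose dose dependence differed between the times in limma, by 3.72 ± 0.54 (SE, adjusted p = 0.0146). At 24 h it had 114, 138 and 91.0 FPKM with (+)-JQ1 and 23.8, 21.9 and 22.8 FPKM with (−)-JQ1 at 0.5 µM, and 111, 163 and 69.2 FPKM with (+)-JQ1 and 158, 65.6 and 108 FPKM with (−)-JQ1 at 0.2 µM. At 12 h it had 63.7, 63.7 and 67.9 FPKM with (+)-JQ1 and 149, 112 and 115 FPKM with (−)-JQ1 at 0.5 µM, and 136, 91.8 and 137 FPKM with (+)-JQ1 and 85.0, 67.2 and 85.3 FPKM with (−)-JQ1 at 0.2 µM. At 24 h the (−)-JQ1 group at 0.5 µM is the low one, and at 12 h the (+)-JQ1 group at 0.5 µM is. Without (−)-JQ1 at 0.2 µM 24 h replicate 3 the call was lost and limma called 0 genes. Small nucleolar RNAs lack poly(A) tails and the libraries were selected for poly(A), and the part of this in the values was not tested.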

How the results depend on the processing

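The interaction at 24 h called 3 genes, and 2 to 4 when any 1 library was left out, with the same direction for Gpr17 under all 23 alternatives, where its adjusted p stayed under 0.05. The count was 40 with all 24 libraries, 38 with those less the 2 rich in Mir5105 (added after the data were seen), 11 without these 2 among the 12, 14 with library weights, 8 with at least 5 FPKM, 15 with 0.1 added and 1 with 5 added. Enpp6 lost its call with 5 added, and 1810041L15Rik with 5 added (adjusted p = 0.419 for both); 1810041L15Rik also lost it with no filter (0.0646) and with the replicate block (0.0802).

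The (+)-JQ1 dose difference called 92 genes, 297 with all 24 libraries, 462 with library weights, 42 with no filter, 164 with 0.1 added, 28 with 5 added, and 19 to 126 leaving out 1 library. Without the 2 libraries rich in Mir5105 it called 62 genes, 4 higher and 58 lower. The (−)-JQ1 dose difference called 0, 1 with all 24 libraries, 2 without the 2 libraries rich in Mir5105, and 0 to 2 leaving out 1. With at least 5 FPKM the enantiomers differed in 2606 genes at 0.5 µM and 1990 at 0.2 µM. The interaction at 12 h called 15 genes, 7 with median-of-ratios scaling, 25 with 0.1 added, 6 with 5 added and 0 to 16 leaving out 1 library. The test between times called 0 to 1. Genes at least 4-fold lower at 12 h had a median interaction of −0.57 at 24 h.

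The replicate numbers were not treated as pairs, since not every same-numbered pair of libraries correlated above 0.1 in its deviations. At 24 h the correlations were −0.364 to 0.326 (median 0.0626), with 7 of 18 above 0.1, against 9 of 36 differently numbered pairs. At 12 h they were −0.0302 to 0.375 (median 0.13), with 11 of 18 above 0.1, against 3 of 36 differently numbered pairs. At 24 h, 5 of 12 libraries correlated best with their own number. With a replicate block the interaction called 261 genes at 12 h (37 higher, 224 lower), so the 12 h count of 15, all lower, rests on leaving the block out. At 24 h the block called 3 genes, of which Ppp1r16b (adjusted p = 0.0442) took the place of 1810041L15Rik beside Gpr17 and Enpp6. The causes of these shifts were not tested. Of the alternatives for the named genes, 1871 kept direction and side of the threshold, 64 passed it, 15 lost it, and 36 changed the sign of an uncalled value. With 3 libraries per group and no read totals, dose dependence under about 2-fold was seldom resolved.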

Other observations

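No pericyte or fibroblast gene had a called interaction, and Myl9, Acta2 and Pdgfrb are named after their values were seen. Of 9 pericyte and fibroblast genes tested, 0 had a called interaction in limma, 4 (Myl9, Acta2, Pdgfrb and Pdgfra) had an unadjusted p under 0.05 with a negative interaction, against 2.95% of all genes. All 9 were negative, against 50.6% of all genes, and the median was −0.715; Pdgfra and Cspg4 also stand on the oligodendrocyte list. Acta2, smooth muscle actin, had 26.2, 21.4 and 21.4 FPKM with (+)-JQ1 and 132, 123 and 95.2 FPKM with (−)-JQ1 at 0.5 µM, and 63.7, 42.2 and 46.5 FPKM with (+)-JQ1 and 145, 115 and 122 FPKM with (−)-JQ1 at 0.2 µM. Myl9, a myosin light chain, was left at 11.1% of the (−)-JQ1 mean at 0.5 µM and 25% at 0.2 µM. At 12 h the list had a median interaction of −0.206.

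Genes of cholesterol and fatty acid synthesis were negative in 24 of 25 tested, against 50.6% of all genes, with a median interaction of −0.224 at 24 h and −0.0219 at 12 h. None was called in limma, and 0 had an unadjusted p under 0.05. Matrix and adhesion genes were negative in 23 of 25, against the same 50.6%, with a median of −0.209. None was called in limma, and 4 of them (Tnc, Sparcl1, Mmp14 and Col11a1) had an unadjusted p under 0.05 with a negative interaction, against 2.95% of all genes. Tnc, the matrix protein tenascin-C, was left at 20.5% of the (−)-JQ1 mean at 0.5 µM and 45.1% at 0.2 µM. The median was 0.0605 over 28 genes of DNA replication, where limma gave 0 calls and 0 genes at an unadjusted p under 0.05, and 0.00183 over 24 genes of mitosis, also with 0 and 0.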
